A study of Rattus norvegicus with 19 samples.

Results

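Apolipoproteins and the proteins that load and unload lipoprotein particles were examined as a set of 10 genes in rat renal cortex: Apoc3, Apoa4, Apoa1, Apob, Mttp, Apoc1, Apoe, Apom, Apoh and Lpl. Every non-control probe whose gene name in the scanner files was one of these was taken, which gave 15 probes of 45598 on the array. Of these, 14 probes were kept, that is, were well above the local background on at least 5 of the 19 arrays, and 9 of the 10 genes were tested among 24217 genes; the single probe of Apoa1 did not reach that minimum. The genes were selected on differences between these same groups, so their levels and differences are a description of the 19 animals and carry no p-value.

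Apolipoproteins are the protein coat of lipoproteins, the particles that carry triglyceride and cholesterol in plasma and lymph. Apob is the scaffold of chylomicrons and very-low-density lipoproteins, Mttp loads it with lipid, Apoa4, Apoc1, Apoc3 and Apoe ride on the surface, and Lpl, lipoprotein lipase, unloads the triglyceride at the capillary wall. Liver and intestine make most of the circulating apolipoproteins; in the kidney the proximal tubule takes filtered apolipoproteins back up through the receptors megalin and cubilin, and it also makes Apom.

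RNA came from the renal cortex of 19 male Crl:CD (SD) rats, hybridised in 1 colour with 1 Agilent array per rat; the age was not given in the sources used here. The 5 Sham rats received vehicle. The 7 DKD (diabetic kidney disease) rats and the 7 DKD+enarodustat rats were made diabetic with streptozotocin, which kills pancreatic beta cells, at 65 mg/kg into a vein 7 days before the groups were formed; of 19 injected rats 14 were used, allotted so that glucose and body weight were alike. Sham and DKD rats ate normal feed, and DKD+enarodustat rats ate feed holding 0.01% (w/w) of enarodustat, a drug that stabilises hypoxia-inducible factor (HIF) by blocking its prolyl hydroxylases; kidneys were taken 14 days after grouping. There was no group given enarodustat without diabetes. The comparison of DKD with Sham asks what the diabetes changed, and the comparison of DKD+enarodustat with DKD asks what the drug changed on top of it; these comparisons share the 7 DKD arrays, and the third comparison, of DKD+enarodustat with Sham, shares arrays with both.

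The tissue matched its label by its markers: the mean level of 8 proximal tubule markers lay between 4.64 and 5.24 on all arrays, on the log2 scale relative to each array's 75th percentile that is used for every level here. In DKD against Sham, where 17.1% of all genes passed in limma, 3 of 5 thick ascending limb and 2 of 5 podocyte markers fell. Of endothelial, muscle and red cell markers 0 of 6, 0 of 6 and 0 of 4 passed (1, 0 and 0 at an unadjusted p under 0.05). The share of probes well above background was 61.0% to 66.8% in Sham (median 64.9%), 54.7% to 67.3% in DKD (median 64.6%) and 54.4% to 62.9% in DKD+enarodustat (median 58.6%). It was thus lower in the group in which Apoc3 and Apoa4 were highest, and its part in those values was not tested. Arrays of 1 group correlated at 0.97 to 0.99. The 3 slides each held all groups, but slide row was tied to group: row 1 held the 5 Sham arrays and 5 of DKD, and row 2 held DKD replicates 2 and 4 and the 7 DKD+enarodustat arrays. For Sham against DKD+enarodustat, row and group cannot be told apart except through the DKD arrays. Whole cortex was measured, so more cells of a type and more RNA per cell cannot be told apart either.

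Probes of 60 bases read these transcripts. The 3 shown here are those that read the interior of the transcripts of the genomic cluster formed by Apoa1, Apoc3, Apoa4 and Apoa5, which are neighbouring protein-coding genes in RefSeq's GRCr8 gene table; they start at bases 480, 272 and 581 of their transcripts.
Apoa1 probe A_44_P411097: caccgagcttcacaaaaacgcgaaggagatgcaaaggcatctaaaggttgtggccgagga
Apoc3 probe A_44_P327799: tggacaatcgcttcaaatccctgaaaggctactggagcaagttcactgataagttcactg
Apoa4 probe A_42_P475199: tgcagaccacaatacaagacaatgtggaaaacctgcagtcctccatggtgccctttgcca
In the rn4 build named in the file headers the last of these lies on chromosome 8 from 49232589 to 49232648 on the plus strand. The second Apoa4 probe, A_44_P1030225, lies at 49233335 to 49233394 on the same strand, and the files give the Apoa1 and Apoc3 probes no rn4 position. Apoc1 and Apoe read chromosome 1 on the minus strand, from 78996673 to 78996732 and from 79003795 to 79003854. In RefSeq's order the protein-coding genes Apoc2, Apoc4, Apoc1 and Apoe follow each other there.

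The table of RefSeq promoters on GRCr8 held 5 of the 10 genes, with 8 start sites. Since enarodustat acts through HIF, whose binding element has the core ACGTG or GCGTG, both cores were searched on both strands in the 250 bases before each start. Of 33469 such windows over all genes, 16.6% held ACGTG, 6.53% held it at least 2 times, and 25.9% held GCGTG. The window of Apoa4 held ACGTG 2 times, at 132 and 74 bases before the start, 1 of the 3 windows of Apoe held it once, and the windows of Apoc1, Apoh and Apom held neither core. Apoa4 and Apom are shown because their levels went apart: in the main processing Apoa4, on its brighter probe, differed most from Sham, and Apom least. Capitals mark the ACGTG core, read on either strand.
Apoa4, chr8:55435529-55435778, plus strand: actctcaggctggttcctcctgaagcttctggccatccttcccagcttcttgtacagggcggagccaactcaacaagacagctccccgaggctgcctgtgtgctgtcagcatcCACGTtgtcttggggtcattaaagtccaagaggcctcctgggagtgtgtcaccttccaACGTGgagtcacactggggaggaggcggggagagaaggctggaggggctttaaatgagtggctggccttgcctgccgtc
Apom, chr20:3695368-3695617, plus strand: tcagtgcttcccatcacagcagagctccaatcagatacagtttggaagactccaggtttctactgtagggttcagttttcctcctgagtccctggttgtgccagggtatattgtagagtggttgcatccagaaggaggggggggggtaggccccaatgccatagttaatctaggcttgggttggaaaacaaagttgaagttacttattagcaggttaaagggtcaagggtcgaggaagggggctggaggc
A match is only a run of letters. Since the windows shown were picked by level, nothing is read from their contrast, and the part of the core was not tested. Promoters of Apoc3, Apoa1, Apob, Mttp and Lpl were not analysed here.

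Diabetes went with more Apoc3 and Apoa4 RNA in the cortex, and with more Mttp signal. Mttp was above background on only 2 of 5 Sham arrays and was kept for testing through the diabetic groups. In DKD against Sham, 3 of the 9 genes tested passed an adjusted p of 0.05 in the fit across all genes, and all of these were higher; over all 24217 genes 17.1% passed, of which 1943 were higher and 2197 lower. For the same 3 genes the lowest DKD array exceeded the highest Sham array, for Mttp with most Sham values below background. Groups stood apart in this way, in either direction, for 10.7% of all genes. Enarodustat went with a further rise of Apoc3: in DKD+enarodustat against DKD 1 of 9 genes passed, where 2.00% of all genes did (259 higher, 226 lower), and the groups did not overlap for Apoc3 and Apoa4, against 1.25% of all genes. In DKD+enarodustat against Sham 4 of 9 passed, all higher (Apoc3, Apoa4, Apoc1 and Mttp), against 26.1% of all genes (2429 higher, 3882 lower), and the groups did not overlap for Apoc3, Apoa4 and Apoc1, against 14.4% of all genes. Because the genes were selected on these contrasts, nothing is read from these shares.

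**Figure D1:**
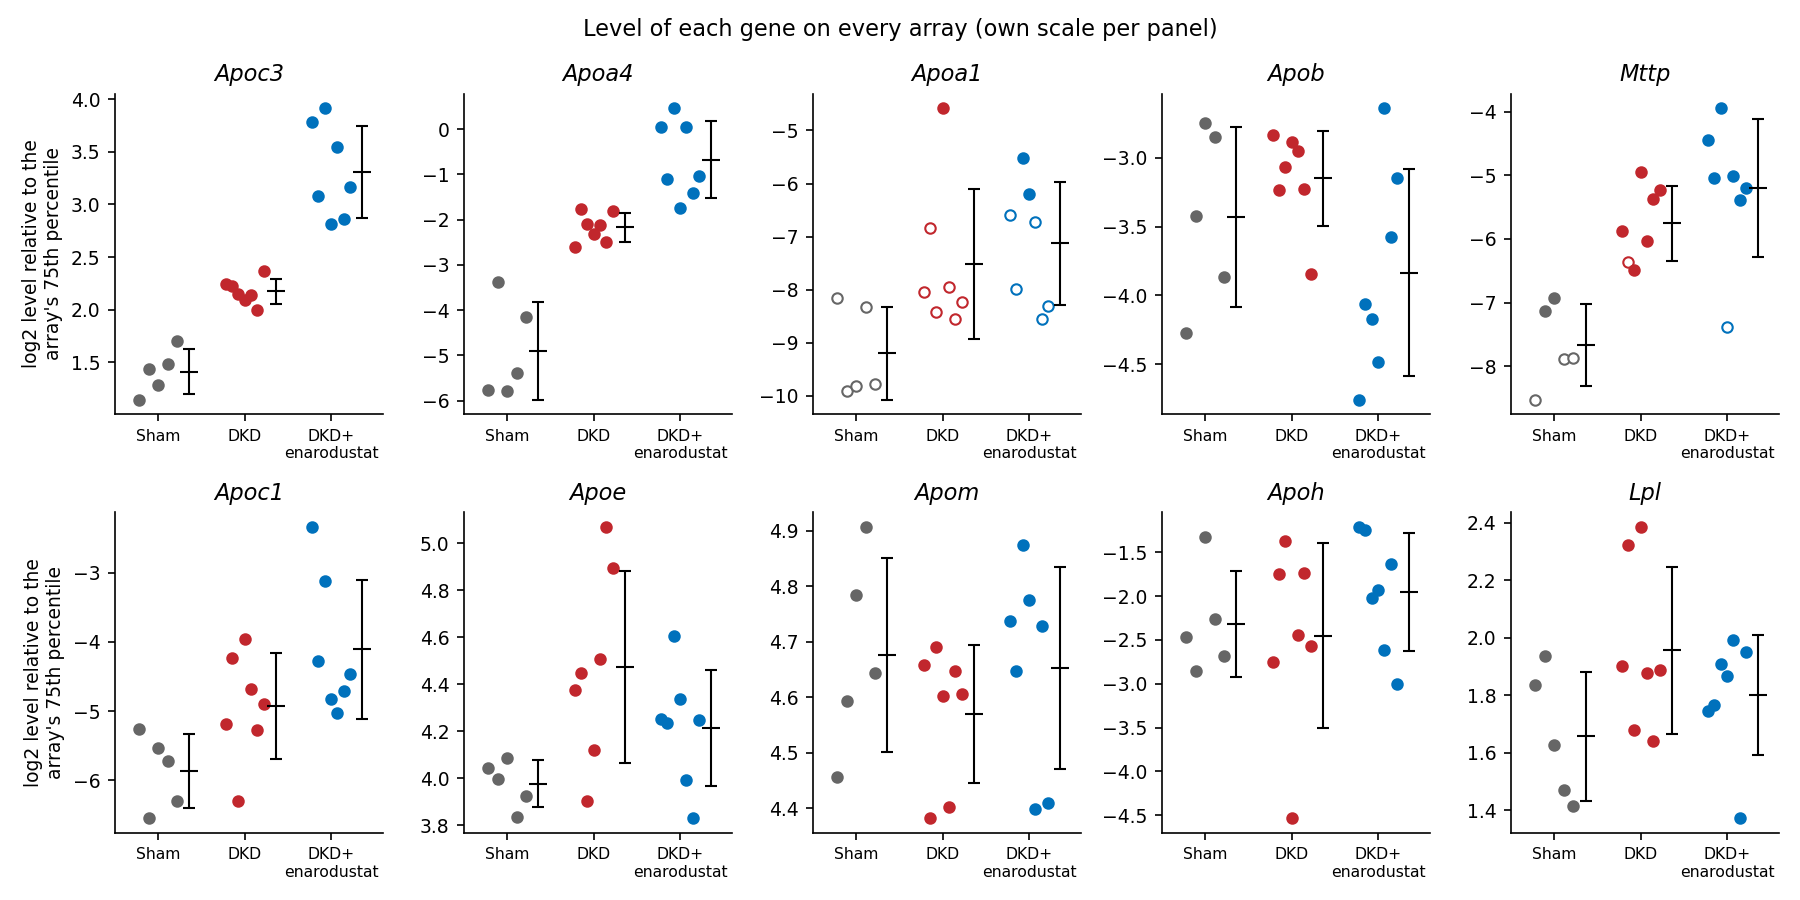
Log2 level of the 10 genes on every array, relative to the array's 75th percentile, in the 5 Sham, 7 DKD and 7 DKD+enarodustat rats; each point is 1 rat, open points were not well above background, and black marks give the mean and SD. For Apoc3 the 3 groups stand in 3 separate steps. For Apoa4 the DKD and DKD+enarodustat arrays all but meet, and the groups of Apom and Apoh overlap.

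Apoc3, a surface protein of triglyceride-rich particles that inhibits lipoprotein lipase and slows their clearance, stepped up from group to group. On its brighter probe the level was 1.14, 1.44, 1.28, 1.48 and 1.70 in Sham replicates 1 to 5. It was 2.24, 2.23, 2.15, 2.09, 2.14, 2.00 and 2.37 in DKD replicates 1 to 7. It was 3.78, 3.08, 3.92, 2.82, 3.54, 2.86 and 3.16 in DKD+enarodustat replicates 1 to 7. The 3 groups did not overlap: the highest Sham array lay below the lowest DKD array, and the highest DKD array below the lowest DKD+enarodustat array. Apoc3 rose by 0.76 ± 0.17 (SE, n = 7 and 5) from Sham to DKD, which is 1.70-fold. It rose by 1.14 ± 0.16 (SE, n = 7 and 7) from DKD to DKD+enarodustat, which is 2.20-fold, and was 3.73-fold higher in DKD+enarodustat than in Sham. The DKD arrays were the tightest, with an SD of 0.12, and the DKD+enarodustat arrays spread most, with an SD of 0.44.

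The second Apoc3 probe, A_44_P327799, gave the same steps. Its level was 0.40 to 0.90 in Sham, 1.36 to 1.69 in DKD and 2.11 to 3.23 in DKD+enarodustat, again without overlap. It differed from Sham by 0.80 ± 0.17 in DKD and by 1.93 ± 0.17 in DKD+enarodustat, and by 1.13 ± 0.15 (SE) between the diabetic groups. Within slides 1, 2 and 3 the difference of DKD+enarodustat from DKD on the brighter probe was 1.20, 1.25 and 1.02. Within slide row 2, where only DKD replicates 2 and 4 stand for DKD, it was 1.15, and with row as a covariate, at that same size, Apoc3 no longer passed.

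Apoa4, a protein of chylomicrons and high-density lipoproteins that the intestine makes in large amounts, stepped up like Apoc3. On its brighter probe the level was -5.78, -3.37, -5.79, -5.39 and -4.16 in Sham. It was -2.60, -1.76, -2.10, -2.32, -2.12, -2.50 and -1.80 in DKD. It was 0.06, -1.10, 0.47, -1.75, 0.04, -1.41 and -1.04 in DKD+enarodustat. All 19 of these values were well above background, and the 3 groups did not overlap, although the highest DKD array (-1.76) all but met the lowest DKD+enarodustat array (-1.75). Apoa4 rose by 2.73 ± 0.44 (SE, n = 7 and 5) from Sham to DKD, which is 6.62-fold, and was 18.7-fold higher in DKD+enarodustat than in Sham. The difference of DKD+enarodustat from DKD was 1.49 ± 0.40 (SE, n = 7 and 7) and did not pass across all genes. Over 25 other settings it ranged from 1.28 to 1.67 and passed in 4. The highest value came without DKD+enarodustat replicate 4, the lowest array of its group. Within slides 1, 2 and 3 that difference was 1.66, 1.56 and 1.34.

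The dimmer Apoa4 probe, A_42_P475199, agreed in direction with smaller steps. Its levels were -7.55 to -6.07 in Sham, -6.41 to -5.20 in DKD and -5.33 to -3.67 in DKD+enarodustat, and it was above background on 4 of 5, 6 of 7 and 7 of 7 arrays. Against Sham it differed by 1.01 ± 0.30 in DKD and by 2.21 ± 0.30 in DKD+enarodustat, and the step between the diabetic groups was 1.20 ± 0.27 (SE), with neighbouring groups overlapping. In the authors' deposited value table, which held only the brighter probe, the difference of DKD from Sham was 1.35 and also passed.

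Apoc3 and Apoa4 also moved together between rats given the drug. Ranked from high to low, the 7 DKD+enarodustat arrays had the same order for both genes: replicates 3, 1, 5, 7, 2, 6 and 4. They fell into 2 sets: replicates 1, 3 and 5 had Apoc3 levels of 3.54 to 3.92 and Apoa4 levels of 0.04 to 0.47, and replicates 2, 4, 6 and 7 had Apoc3 levels of 2.82 to 3.16 and Apoa4 levels of -1.75 to -1.04. With 3 and 4 arrays a set is too small for a coefficient, and none is given. On each slide the higher array was the one in the lowest-numbered column among the DKD+enarodustat arrays (column 2 on slides 1 and 2, column 1 on slide 3), and Apoc3 and Apoa4 ran against the share of probes above background over these 7 arrays (r of -0.66 and -0.60, as a description). The part of array position and of that share in this split was not tested. Mttp came close to the same order, with replicates 3 and 1 highest and replicate 4 lowest.

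**Figure D2:**
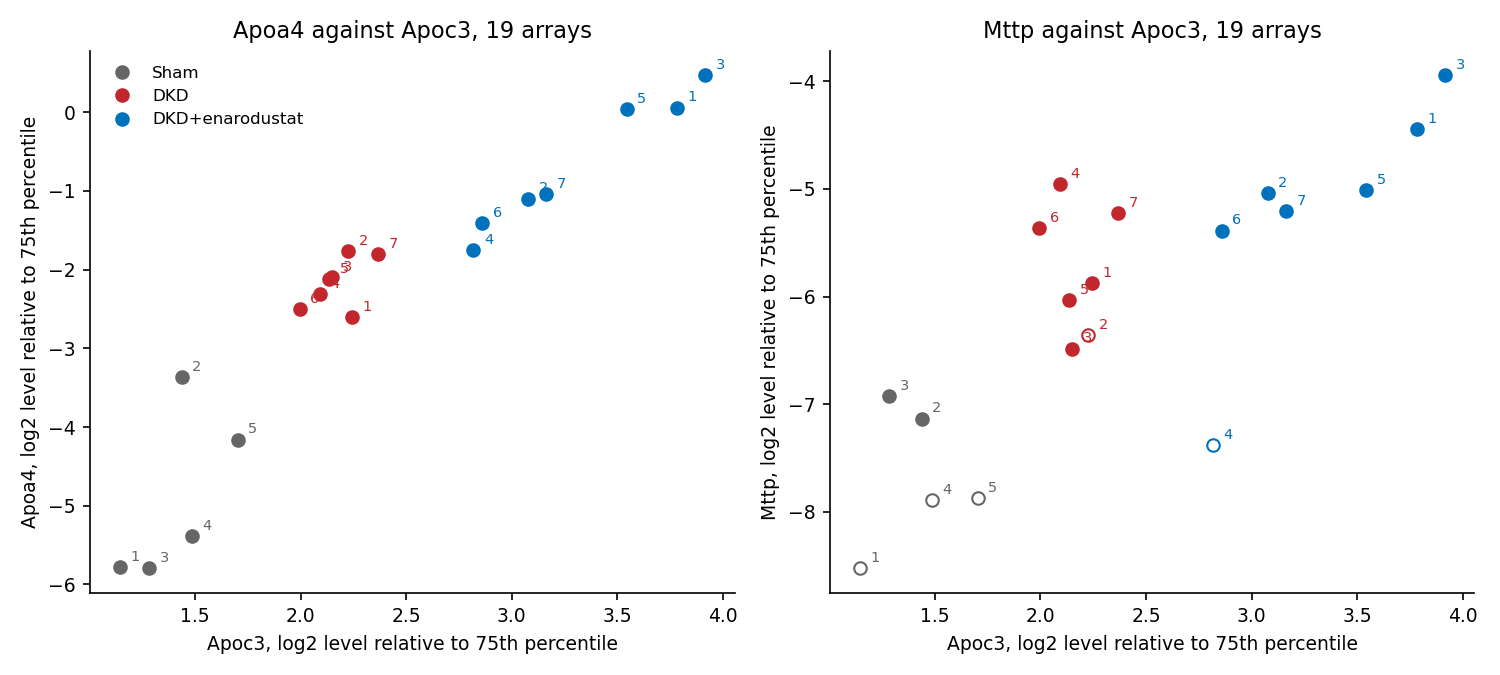
Log2 level of Apoa4 (left) and Mttp (right) against that of Apoc3 on each of the 19 arrays, relative to the array's 75th percentile; numbers are replicate numbers, colours are groups, and open points mark a Mttp value not well above background. For Apoa4 the DKD+enarodustat arrays lie along 1 line from replicate 4 at the low end to replicate 3 at the high end.

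Apoa1, the main protein of high-density lipoproteins and the other neighbour of Apoc3, was at the limit of detection. Its probe was well above background on 0 of 5 Sham, 1 of 7 DKD and 2 of 7 DKD+enarodustat arrays. The measured values were -9.91 to -8.16 in Sham, -8.55 to -4.58 in DKD and -8.55 to -5.52 in DKD+enarodustat. The highest DKD value was that of replicate 4; the next highest DKD array was at -6.84 and not above background. With so few measured arrays no fold is given. Apoa5, the fourth gene of the cluster, which activates lipoprotein lipase, differed by -0.20 ± 0.25 in DKD against Sham (SE, limma adjusted p = 0.684) and by 0.01 ± 0.23 in DKD+enarodustat against DKD (adjusted p = 0.997).

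Mttp, the endoplasmic reticulum protein that transfers triglyceride to nascent Apob, was dim and mostly undetected in Sham. Its level was -8.52, -7.13, -6.92, -7.89 and -7.87 in Sham, where replicates 2 and 3 were above background. It was -5.88, -6.36, -6.48, -4.95, -6.03, -5.37 and -5.22 in DKD, where all but replicate 2 were above background. It was -4.44, -5.04, -3.94, -7.38, -5.01, -5.39 and -5.20 in DKD+enarodustat, where all but replicate 4 were above background. DKD lay wholly above Sham, and DKD+enarodustat overlapped both. Mttp rose by 1.91 ± 0.46 (SE, n = 7 and 5) from Sham to DKD and differed by 0.56 ± 0.42 (SE, n = 7 and 7) between DKD+enarodustat and DKD. From Sham to DKD+enarodustat the fitted difference was 2.47 ± 0.46 (SE, n = 7 and 5) and passed. With slide row as a covariate Mttp no longer passed in that comparison. Since 3 of 5 Sham values were below background, neither size against Sham is fully measured, and Mttp was kept for testing through the diabetic groups. With normexp background correction and quantile normalisation the difference from Sham was 0.25 in DKD, which did not pass, and 0.39 in DKD+enarodustat.

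Apob, the scaffold that Mttp loads, did not follow Mttp past the threshold. Its level was -4.28 to -2.74 in Sham (median -3.42), -3.85 to -2.84 in DKD (median -3.07) and -4.76 to -2.64 in DKD+enarodustat (median -4.06), and the 3 groups overlapped. DKD differed from Sham by 0.28 ± 0.34, and DKD+enarodustat from DKD by -0.68 ± 0.31, the latter with a 95% interval of -1.34 to -0.03. The other Apob probe gave 0.14 ± 0.37 and -0.62 ± 0.33 (SE). Within slides 1, 2 and 3 the difference of DKD+enarodustat from DKD was -1.37, -1.35 and 0.22, so its sign was not the same on every slide. Over all arrays the difference of Apob under enarodustat has the opposite sign to those of Apoc3 and Apoa4. It did not pass, and the difference between the genes was not tested.

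Apoc1, an inhibitor of lipoprotein receptors and of cholesteryl ester transfer, was low and climbed across the groups with wide scatter. Its level was -6.55 to -5.26 in Sham (median -5.72), -6.29 to -3.96 in DKD (median -4.89) and -5.03 to -2.34 in DKD+enarodustat (median -4.47). DKD overlapped both other groups, and every DKD+enarodustat array lay above every Sham array. DKD differed from Sham by 0.94 ± 0.46, and DKD+enarodustat from DKD by 0.82 ± 0.42, neither past the threshold. From Sham to DKD+enarodustat Apoc1 rose by 1.76 ± 0.46 (SE, n = 7 and 5), and its other probe gave 1.74 ± 0.47. Within slide row 2 the difference of DKD+enarodustat from DKD was -0.02, with 2 DKD arrays there, and with row as a covariate the difference from Sham was 0.59 and no longer passed. With normexp and quantile normalisation the DKD against Sham difference was 0.27.

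Apoe, the ligand by which cells take up lipoprotein remnants, was scattered in DKD and tight in Sham. Its level was 3.83 to 4.09 in Sham, 3.90 to 5.07 in DKD and 3.83 to 4.61 in DKD+enarodustat. The SD was 0.10 in Sham and 0.41 in DKD, where replicates 6 and 7 were highest, at 5.07 and 4.89. The difference of DKD from Sham was 0.50 ± 0.17 with a 95% interval of 0.14 to 0.85, and it passed in 4 of 23 settings but not here. Enarodustat against DKD gave -0.26 ± 0.15. Within slide 3, which held DKD replicates 6 and 7, it was -0.80, and within slide 2 it was 0.46. For Apoc2, the neighbour of Apoc1 in the Apoe cluster and the required cofactor of lipoprotein lipase, the level was -1.95 to -1.07 in Sham, -1.18 to 0.95 in DKD and 0.04 to 1.75 in DKD+enarodustat. Apoc2 rose by 1.48 ± 0.35 from Sham to DKD (limma adjusted p = 0.00741), differed by 1.02 ± 0.32 between DKD+enarodustat and DKD (adjusted p = 0.123), and was 5.66-fold higher in DKD+enarodustat than in Sham (adjusted p = 6.02e-05). Apoc4, between them, differed by 0.18 ± 0.17 and -0.17 ± 0.16 (adjusted p = 0.563 and 0.737).

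Macrophages are a known source of Apoe, Apoc1, Apoc2 and Lpl, and some of their markers were higher in the diabetic groups. In DKD against Sham 3 of 9 macrophage markers rose and 0 fell, where 17.1% of all genes passed. In DKD+enarodustat against Sham 6 of 9 rose, where 26.1% of all genes passed. Adgre1 and Aif1 went the other way without passing, with differences from Sham of -0.29 and -0.30 in DKD and -0.34 and -0.15 in DKD+enarodustat. The other markers were above Sham in both. The mean level of the list was -1.47 to -1.05 in Sham, -1.20 to 0.01 in DKD and -0.87 to 0.07 in DKD+enarodustat, and 0 of 9 passed between the diabetic groups (limma, 1 at an unadjusted p under 0.05). The part of macrophages in the Apoc1, Apoc2 and Apoe values was not tested.

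Apom, a carrier of sphingosine-1-phosphate on high-density lipoproteins that tubule cells make, hardly differed. Its level was 4.46 to 4.91 in Sham, 4.38 to 4.69 in DKD and 4.40 to 4.87 in DKD+enarodustat. The groups overlapped throughout. The difference of DKD from Sham was -0.11 ± 0.10 with a 95% interval of -0.31 to 0.10, and that of DKD+enarodustat from DKD was 0.08 ± 0.09 with an interval of -0.10 to 0.27, so changes larger than those bounds lie outside the intervals. Over 23 other settings the difference of DKD from Sham ranged from -0.23 to -0.05. It passed in 1 of them, the authors' value table. Apom was the most precisely measured gene of the set.

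Apoh, beta-2-glycoprotein I, a phospholipid-binding plasma protein, differed by less than its scatter. Its level was -2.86 to -1.32 in Sham, -4.53 to -1.37 in DKD and -3.00 to -1.21 in DKD+enarodustat. DKD differed from Sham by -0.13 ± 0.46, and DKD+enarodustat from DKD by 0.50 ± 0.42 (SE). The DKD array at -4.53 was replicate 4, which lay in slide row 2; in that row the difference of DKD+enarodustat from DKD was 1.19.

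Lpl, the lipase that hydrolyses the triglyceride of circulating particles, had close levels in the 3 groups. It was 1.41 to 1.93 in Sham, 1.64 to 2.39 in DKD and 1.37 to 1.99 in DKD+enarodustat, and the groups overlapped. DKD differed from Sham by 0.30 ± 0.14, and DKD+enarodustat from DKD by -0.16 ± 0.13, with the other probe at 0.32 ± 0.15 and -0.19 ± 0.14. The highest arrays were DKD replicates 2 and 4, at 2.32 and 2.39, which are the DKD arrays of slide row 2. These also had the highest mean level of 7 adipocyte markers, at -0.58 and -0.76, against -4.17 to -1.93 on the other DKD arrays and -5.25 to -4.89 in Sham. Within slide row 1 the difference of DKD from Sham was 0.14. Adipocytes make Lpl in large amounts. In DKD against Sham 4 of 7 adipocyte markers rose, where 17.1% of all genes passed. The part of adipocytes in the Lpl values was not tested.

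**Figure D3:**
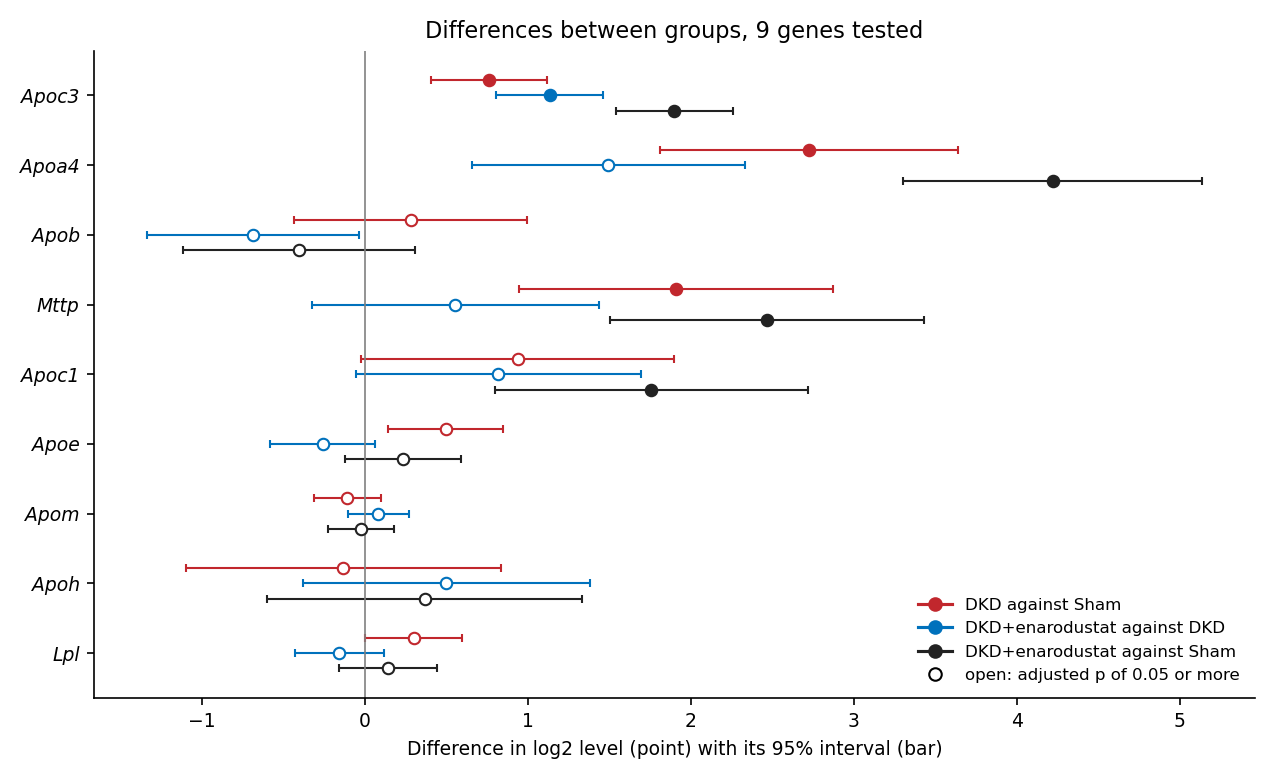
Difference in log2 level (points) with its 95% interval (bars) for the 9 genes tested in the 3 comparisons; filled points passed an adjusted p of 0.05 over all genes and open points did not. Apoc3 is filled in all 3 comparisons, Apoa4 and Mttp in the 2 against Sham, and Apoc1 in DKD+enarodustat against Sham.

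Since liver and intestine are the main sources of Apoa4, Apoc3, Apob and Mttp elsewhere in the body, their other transcripts were looked at on the same arrays. Of 8 hepatocyte markers tested, 5 rose in DKD against Sham and 0 fell, among them the fibrinogen chains Fga, by 1.56 ± 0.23 (limma adjusted p = 0.000146), and Fgb, by 3.28 ± 0.41 (adjusted p = 2.85e-05). The mean level of the hepatocyte list was -4.91 to -4.65 in Sham, -3.87 to -2.54 in DKD and -3.56 to -2.55 in DKD+enarodustat. Ttr and Cps1, the other 2 of the 10 markers, were above background on 0 of 19 arrays, and Alb on 0 of 5 Sham, 4 of 7 DKD and 4 of 7 DKD+enarodustat arrays. In DKD+enarodustat against DKD 0 of 8 hepatocyte markers passed in limma, where 2.00% of all genes did, and 2 had an unadjusted p under 0.05. The part of the hepatocyte genes in the values of Apoc3, Apoa4, Apob and Mttp was not tested in any comparison. Of 4 enterocyte markers tested 0 passed in any of the 3 comparisons (1 at an unadjusted p under 0.05, in DKD+enarodustat against Sham), and Fabp2 was above background on 1 of 19 arrays.

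Of other genes in the same pathways, 102 in 6 lists by role, 87 were tested. In DKD against Sham 18 rose and 11 fell, which is 33.3% against 17.1% of all genes, with a median difference of 0.04 against -0.02. Between the diabetic groups 1 passed, or 1.15% against 2.00%. In DKD+enarodustat against Sham 22 rose and 15 fell, or 42.5% against 26.1%, with a median of 0.03 against -0.04. The lists were put together by role with earlier results of these data known, and no test of them was made.

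Among 11 other apolipoproteins 2 rose and 0 fell in DKD against Sham, Apoc2 and Clu. This share was near that of all genes, 17.1%, and nothing is read from it. Clu, apolipoprotein J, a secreted chaperone and a marker of tubular damage, had levels of 0.55 to 1.78 in Sham, 2.66 to 3.68 in DKD and 1.96 to 3.91 in DKD+enarodustat. Clu rose by 1.86 ± 0.31 (SE, limma adjusted p = 0.000391) and differed by 0.14 ± 0.28 under enarodustat (adjusted p = 0.925). The single gene of the 87 that passed in DKD+enarodustat against DKD was Apol9a, an interferon-responsive apolipoprotein L, which rose by 1.36 ± 0.31 (adjusted p = 0.029) with overlapping groups. It passed in 14 of 25 settings.

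Lipoprotein assembly genes rose for 4 of 12 tested and fell for 0 in DKD against Sham, where 17.1% of all genes passed. Mogat2, which makes diacylglycerol for triglyceride synthesis in the intestine, was above background on 0 of 5 Sham and 7 of 7 DKD arrays and was higher in DKD (limma adjusted p = 3.64e-05). With Sham set at the lowest signal above background on each of its arrays, its rise was 4.17-fold. This is not a lower bound, because undetected probes can read above that signal. It was at most -7.68 in Sham, while Creb3l3 in Sham replicate 5 was at -7.48 and not above background. The measured means of Mogat2 were -9.54 and -6.06, the Sham values are below background, and Mogat2 was kept for testing through the diabetic groups. With normexp and quantile normalisation its difference was 0.35, a smaller rise, and still passed. Dgat2, which adds the third fatty acid of triglyceride, rose by 0.58 ± 0.12 (adjusted p = 0.00202). Tm6sf2, which helps lipidate Apob particles, rose by 0.70 ± 0.16 (adjusted p = 0.00446), and Sar1b, the coat GTPase that ships chylomicrons out of the endoplasmic reticulum, by 0.35 ± 0.10 (adjusted p = 0.0175, and 0.0525 without the DKD arrays of slide row 2). Under enarodustat 0 of 12 passed against DKD in limma, with 3 at an unadjusted p under 0.05.

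Lipases and their regulators rose for 3 and fell for 2 of 11 in DKD against Sham, where 17.1% of all genes passed. Angptl4, a secreted inhibitor of lipoprotein lipase, had levels of -3.75 to -2.23 in Sham, -0.09 to 1.73 in DKD and 0.54 to 1.56 in DKD+enarodustat. Angptl4 rose by 3.63 ± 0.32 from Sham to DKD (limma adjusted p = 8.24e-07), and passed in 23 of 23 other settings. Its highest DKD arrays were replicates 2 and 4, at 1.29 and 1.73, which had the highest adipocyte marker levels. The part of those cells was not tested. The difference of DKD+enarodustat from DKD was 0.46 ± 0.29 (adjusted p = 0.552). Over 25 other settings that difference ranged from -0.41 to 0.81 and passed in 0. Lipa, the lysosomal acid lipase, rose by 0.54 ± 0.11 (adjusted p = 0.00219), and Pcsk6, a proprotein convertase, fell by 1.39 ± 0.32 (adjusted p = 0.0052). Gpihbp1, the capillary anchor of lipoprotein lipase, was above background on 1 of 5 Sham, 3 of 7 DKD and 1 of 7 DKD+enarodustat arrays and did not pass in any comparison.

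Receptors moved both ways: 4 of 17 rose and 5 fell in DKD against Sham, where 17.1% of all genes passed. Cubn, cubilin, which binds filtered Apoa1, rose by 0.51 ± 0.08 (limma adjusted p = 0.000286), while its partners Lrp2, megalin, and Amn, amnionless, fell by 0.62 ± 0.12 (adjusted p = 0.00199) and by 0.48 ± 0.09 (adjusted p = 0.00154). Cd36, a fatty acid and oxidised lipoprotein receptor, rose by 0.96 ± 0.16 (adjusted p = 0.00054). Its highest arrays were DKD replicates 2 and 4, at 1.83 and 1.78, which had the highest adipocyte marker levels, and the part of those cells was not tested. Scarb1, the high-density lipoprotein receptor, rose by 0.71 ± 0.19 (adjusted p = 0.0137, and 0.0553 with slide row as a covariate). Sorl1, a sorting receptor for lipase and Apoe, fell by 0.62 ± 0.12 (adjusted p = 0.00138). Between the diabetic groups 0 of 17 passed in limma, with 5 at an unadjusted p under 0.05. Lrp2 and Cubn are also proximal tubule markers. Of the 8 markers of that list 1 rose (Cubn) and 6 fell in DKD against Sham, where 17.1% of all genes passed.

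Cholesterol efflux and high-density lipoprotein genes rose for 1 of 13 and fell for 0 in DKD against Sham, a smaller share than the 17.1% of all genes. Pon3, a paraoxonase carried on high-density lipoproteins, rose by 0.70 ± 0.15 (limma adjusted p = 0.00353). Abca1, the pump that lipidates Apoa1, differed by -0.26 ± 0.67 (adjusted p = 0.873), with its other probe at 0.48 ± 0.25, so its probes disagree in sign.

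Transcription factors known to act on apolipoprotein genes rose for 4 and fell for 4 of 23 in DKD against Sham, where 17.1% of all genes passed. Creb3l3, which switches on Apoa4, Apoc2 and other lipid genes in liver and intestine, was above background on 1 of 5 Sham and 7 of 7 DKD arrays, with levels of -9.51 to -6.11 and -4.32 to -2.46. With 4 Sham values below background the size of its rise was not measured, and it was kept for testing through the diabetic groups. The fitted difference was 4.20 ± 0.42 (limma adjusted p = 3.28e-06), but normexp followed by quantile normalisation gave 1.08. Creb3l3 differed by 0.21 ± 0.39 between DKD+enarodustat and DKD (adjusted p = 0.916). Hnf4a, a nuclear receptor that drives the Apoc3 and Apoa4 cluster in liver, went the other way: it was 3.97 to 4.13 in Sham and 3.45 to 3.79 in DKD, and fell by 0.41 ± 0.08 (adjusted p = 0.00128), with both other probes negative as well (-0.44 and -0.48). Under enarodustat Hnf4a differed by 0.05 ± 0.07 (adjusted p = 0.89). Cebpb and Cebpa rose by 0.80 ± 0.16 and 0.53 ± 0.13 (adjusted p = 0.00211 and 0.00691). Ppara, the fatty acid sensor, differed by 0.35 ± 0.20 in DKD against Sham (adjusted p = 0.258) and by 0.47 ± 0.18 in DKD+enarodustat against DKD (adjusted p = 0.227), and rose by 0.82 ± 0.20 in DKD+enarodustat against Sham (adjusted p = 0.00475). Of the 23 factors, 0 passed in limma in DKD+enarodustat against DKD, where 2.00% of all genes did, and 4 had an unadjusted p under 0.05; their part in the Apoc3 values was not tested.

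**Figure D4:**
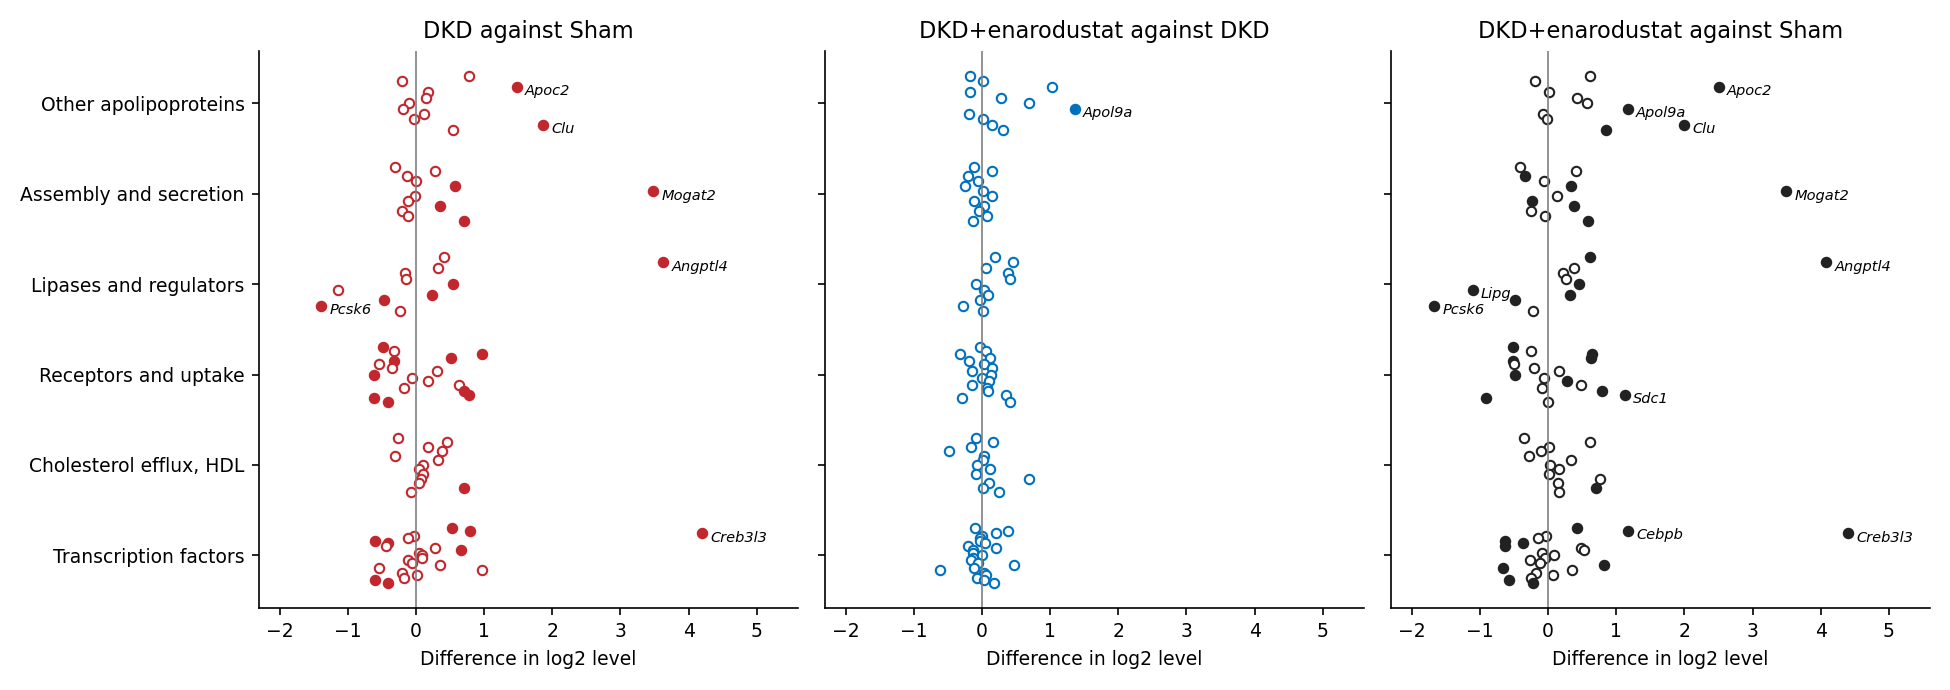
Difference in log2 level of the 87 tested genes of 6 lipoprotein lists in the 3 comparisons, 1 point per gene; filled points passed an adjusted p of 0.05 over all genes, and filled points past a log2 difference of 1 in size are named. Points spread widely in the comparisons against Sham and crowd near 0 in DKD+enarodustat against DKD, where Apol9a alone is filled.

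Genes most like each member over the 19 arrays were named by Pearson's r, as a description. The arrays share the 3 groups and the 3 slides, so an r can hold steps between groups, to a degree that differed by member. Apoc3 was most like Ldha, lactate dehydrogenase A, at 0.95, Tpi1l1 at 0.95 and Galk1, galactokinase, at 0.93. With group means removed these fell to 0.45, 0.59 and 0.39. Of all tested genes Apoa4 was most like Apoc3, at 0.93, and 0.78 with group means removed, followed by Rbis and Acot7 at 0.92 each. Mttp was most like Fuca1, a lysosomal fucosidase, at 0.92, Trappc6a at 0.91 and Vamp8 at 0.91, and these stayed at 0.81, 0.77 and 0.72 within groups. Apoc1 was most like Kntc1, Apoc2 and Acp5, all at 0.79. Lpl was most like the heat shock protein Hspb1 at 0.87, Cav1 at 0.79 and Lrrfip1 at 0.76, and Apom like Gfus at 0.86, Timm17b at 0.83 and Htt at 0.80. For Apoe, Apob and Apoh the nearest genes were Nicn1, S100pbp and Serpinb6a at 0.69 to 0.71, Smc2, Tmem168 and Ppp3cc at 0.72 to 0.74, and Alx1, Bhlhe22 and Rpia at 0.76 to 0.77. With group means removed, r was 0.86 for Lpl and Hspb1, 0.89 for Apom and Gfus, 0.80 for Apob and Smc2, and 0.86 for Apoh and Alx1. It was 0.61 for Apoc1 and Kntc1 and 0.55 for Apoe and Nicn1.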

How the data were processed

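Renal cortex RNA of 19 rats was read on 1-colour Agilent arrays, 1 per rat. Per the file headers, the deposited intensity values are processed signals of Agilent Feature Extraction 11.5.1.1, background-subtracted by that software. The authors' deposited value table holds log2 values for 22739 probes, without Apoa1 and Mttp; its exact normalisation is not given in the sources used here, and the submitters' processing notes name limma.

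From the intensities, log2 minus each array's 75th percentile was taken, control and outlier spots were left out, and spots of a probe were averaged. A probe was kept if well above background on at least 5 of 19 arrays, and the brightest kept probe stood for its gene. Probes were named through RefSeq accessions where these matched (21109 of 45598 probes, GRCr8 table, used for names only), otherwise by the file's name. limma 3.58.1 in R 4.3.3 (with statmod 1.5.0) fitted the 3 groups together over 24217 genes, with Benjamini-Hochberg adjustment and a threshold of 0.05. The fit was tested on simulated data. The number of arrays limits the precision. The labels do not say whether RNA was extracted in batches.

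The 10 genes, the 6 pathway lists and the marker lists were chosen with earlier results of these data known. Named were all 10 genes, up to 4 pathway genes per list and comparison with the smallest adjusted p, 10 fixed genes (some not reported here), and per member the 3 genes with the highest r; Apoa5, Apoc4, Cebpa, Fga and Fgb were added after their values were seen. Same-numbered rats deviated together in every pair (r of 0.13 to 0.59 for DKD and Sham, 0.14 to 0.42 for DKD+enarodustat and DKD), and the numbers coincide with slides. Alternatives were other background correction, normalisation, filters, probe rules, the authors' table, slide and row terms, a replicate block and leaving out each array; the differences within slide row 2 were added after seeing the data.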

Additional observations from a re-analysis of the deposited data

Results flagged for a closer look

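In 30 sets of arrays (10 genes in 3 groups), the gap of the most extreme array to its nearest neighbour was set against the whole range of the group, and 4 arrays stood apart by Dixon's criterion; chance alone gives about 1 in 20 sets. Apob was lowest in DKD replicate 7, at -3.85. Lpl was lowest in DKD+enarodustat replicate 6, at 1.37. Mttp was lowest in DKD+enarodustat replicate 4, at -7.38, a value not well above background, and the same array was lowest of its group for Apoc3 and Apoa4. Apoa1 was highest in DKD replicate 4, at -4.58, the single DKD array on which it was well above background.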

How the results depend on the processing

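Over all member differences, called or not, 687 alternative values lay within the spread of the arrays and 36 moved further. No called one changed sign, but uncalled ones did: Lpl in DKD+enarodustat against Sham ranged from -0.41 to 0.22, Apom there from -0.20 to 0.09, and Apoh in DKD against Sham from -0.31 to 0.22, and uncalled differences of Apob, Apoc1, Apoe, Apoh, Apom and Lpl also changed sign within a slide, in slide row 2 or without its DKD arrays. The replicate block called 3, 1 and 4 members in DKD against Sham, DKD+enarodustat against DKD and DKD+enarodustat against Sham, and changed no member's call. In DKD+enarodustat against DKD, members called were 2 with normexp and quantile normalisation, with the authors' table and with the mean of probes, 0 with slide row as a covariate, and 1 to 2 when leaving out each array. Pathway genes called there were 2 with normexp and quantile normalisation, the filter on every array of a group, the mean of probes, slide as a block or slide row as a covariate, 13 with the authors' table, 0 with no filter, and 0 to 2 when leaving out each array. All genes called there were 485, against 291 with arrays centred on the median, 1772 with the authors' table, 284 with no filter, 915 with slide as a block, 84 with slide row as a covariate, 644 with the replicate block, and 286 to 497 when leaving out each array. In DKD+enarodustat against Sham, slide row as a covariate left 2 members, 8 pathway genes and 1031 genes, and no filter called 10744 genes. With slide row as a covariate the difference from Sham turned to -0.0787 for Cd36 and to 0.0812 for Lrp2. Higher calls were 46.9% in DKD against Sham, but 34.7% with normexp and 37.0% with quantile normalisation alone; in DKD+enarodustat against DKD they were 53.4%, but 34.4% with the authors' table. The causes were not tested. Dim signal limits Mttp, Apoa1, Mogat2 and Creb3l3.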
